A study of Mus musculus with 24 samples.

Results

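Striatal projection neurons receive dopamine, adenosine, acetylcholine and endocannabinoid signals through G protein-coupled receptors, and 9 such receptor genes were followed here: Drd1, Drd2, Drd3, Drd4, Adora2a, Chrm4, Gpr6, Gpr52 and Cnr1. They were taken by gene symbol from a table of read counts for 54532 genes in mouse striatum. A row was found for 8 of the 9, and Gpr52 was not analysed here. Of the 8, 7 passed the filter on low counts, which left 19667 genes tested, and Drd4 did not pass. The 24 libraries came from 24 C57BL/6 mice of 4 genotypes, with 3 males and 3 females in each. WT mice were wild type and TyrobpKO mice lacked Tyrobp, which encodes an adaptor protein of microglial receptors. Q175 mice were heterozygous for the Q175 allele, in which an expanded CAG repeat was placed in the mouse Huntingtin gene (Htt) to model Huntington's disease, and Q175_TyrobpKO mice were heterozygous for it and lacked Tyrobp. All groups were the striatum of 1 hemisphere, frozen as tissue, and their age is not given. The libraries held 25.5 to 34.6 M counts each (M, megacounts). Tyrobp itself was at 5.69 to 11.8 CPM (counts per megacount of the library, scaled by TMM) in the 12 libraries labelled with the gene and at 0.214 to 0.448 CPM in the 12 labelled without it, and the projection neuron genes Penk (1086 ± 155 CPM) and Scn4b (1740 ± 246 CPM) were abundant in WT, as the label striatum implies. Each library was from 1 animal, so p-values measure the spread between animals.

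The projection neurons of the striatum form a direct and an indirect output pathway. Direct-pathway neurons carry the dopamine receptor of Drd1, which couples to the stimulatory G protein Golf and raises cyclic AMP, and the muscarinic receptor of Chrm4, which couples to inhibitory G proteins and opposes it. Indirect-pathway neurons carry the dopamine receptor of Drd2, which lowers cyclic AMP, the adenosine receptor of Adora2a, which raises it through Golf, and Gpr6, an orphan receptor with constitutive activity that also raises it. Cnr1, the cannabinoid receptor of presynaptic terminals, is made by both kinds of projection neuron and by some interneurons and cortical neurons. In patients with Huntington's disease, loss of indirect-pathway neurons is known to come early. Because whole tissue was sequenced, fewer cells of a type and less RNA per cell cannot be told apart in any value below.

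The start regions of 4 of these genes are shown because the genes fell together in Q175 striatum, 2 from each pathway. RefSeq windows on the build GRCm38.p6, from 250 bases before to 50 after the gene start, are printed 5′ to 3′ on the gene's own strand. Capitals mark GGGCGG or its reverse complement, the core of a GC box, or TGACGTCA, the palindromic core of a cyclic AMP response element.
Drd1, chr13:54055609-54055908, minus strand: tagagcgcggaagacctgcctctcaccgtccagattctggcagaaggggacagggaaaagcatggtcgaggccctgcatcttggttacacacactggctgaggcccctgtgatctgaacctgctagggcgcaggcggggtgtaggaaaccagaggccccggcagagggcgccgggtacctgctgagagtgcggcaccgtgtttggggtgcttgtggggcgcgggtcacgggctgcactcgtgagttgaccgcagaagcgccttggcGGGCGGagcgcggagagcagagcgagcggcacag
Chrm4, chr2:91921939-91922238, plus strand: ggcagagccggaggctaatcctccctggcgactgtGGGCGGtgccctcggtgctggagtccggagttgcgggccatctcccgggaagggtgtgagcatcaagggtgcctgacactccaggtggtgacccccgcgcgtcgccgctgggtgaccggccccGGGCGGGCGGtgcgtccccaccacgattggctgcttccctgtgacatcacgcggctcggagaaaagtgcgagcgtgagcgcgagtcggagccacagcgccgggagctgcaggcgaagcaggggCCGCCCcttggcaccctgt
Drd2, chr9:49340153-49340452, plus strand: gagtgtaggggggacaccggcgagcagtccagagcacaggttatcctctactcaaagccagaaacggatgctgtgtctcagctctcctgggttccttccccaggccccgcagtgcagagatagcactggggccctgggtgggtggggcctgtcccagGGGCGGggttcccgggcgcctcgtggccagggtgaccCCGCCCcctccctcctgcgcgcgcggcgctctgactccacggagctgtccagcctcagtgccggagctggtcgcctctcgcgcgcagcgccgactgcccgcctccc
Gpr6, chr10:41072241-41072540, minus strand: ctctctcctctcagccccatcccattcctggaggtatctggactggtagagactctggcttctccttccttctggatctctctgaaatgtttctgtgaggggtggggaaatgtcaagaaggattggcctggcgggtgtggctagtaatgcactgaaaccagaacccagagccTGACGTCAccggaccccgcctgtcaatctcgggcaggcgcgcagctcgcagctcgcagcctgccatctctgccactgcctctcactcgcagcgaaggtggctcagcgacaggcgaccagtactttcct
On both strands, and with overlapping matches counted, the Chrm4 window held 4 copies of GGGCGG, the Drd2 window 2 and this Drd1 window 1. None was in the Gpr6 window, which held TGACGTCA starting 78 bases before the gene start. Of 32851 RefSeq windows of the same length, 35.7% held GGGCGG and 1.79% held TGACGTCA. The 4 windows were 58.7% (Gpr6), 65.7% (Drd1), 70.3% (Drd2) and 70.7% (Chrm4) G or C, and the median of all windows was 52.7%. TATAAA, which 13.6% of windows hold, was in none of the 10 windows that the table gives for 7 of the receptors. These matches describe the letters only.

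Levels were first ordered within WT, as CPM per kilobase of the deposited gene length. Adora2a stood first with 107 ± 16.0 CPM per kb (SD, n = 6), then Drd2 with 100.3 ± 17.2, Drd1 with 81.9 ± 14.6, Cnr1 with 71.8 ± 9.86, Gpr6 with 44.5 ± 6.76 and Chrm4 with 43.5 ± 6.35. Drd3 (0.767 ± 0.380 CPM per kb) and Drd4 (0.0682 ± 0.0283) were far below. The ranges of the first 4 overlapped from each gene to the next, as did those of Gpr6 and Chrm4, while Cnr1 and Gpr6, Chrm4 and Drd3, and Drd3 and Drd4 were separated in every library. In both Q175 genotypes Drd2 stood above Adora2a and Cnr1 overlapped the gene below it. The order rests on the deposited model of each gene, and the Chrm4 model of 1440 bases starts downstream of the RefSeq start.

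Drd1 (ENSMUSG00000021478, chr13:54051183-54055705, minus strand) and Chrm4 (ENSMUSG00000040495, chr2:91927249-91928688, plus strand) represent the direct pathway. Drd1 ranged from 214 to 354 CPM in WT (median 308), from 195 to 316 in TyrobpKO (median 233), from 141 to 210 in Q175 (median 181) and from 133 to 210 in Q175_TyrobpKO (median 164). All 6 Q175 libraries lay below all 6 WT libraries, whereas Q175_TyrobpKO and TyrobpKO overlapped. For this and every separation of libraries below, the share of all genes that separate likewise is not given here. Chrm4 ranged from 45.5 to 70.5 CPM in WT (median 64.5), from 43.8 to 68.2 in TyrobpKO (median 51.2), from 34.7 to 41.6 in Q175 (median 37.6) and from 27.9 to 44.3 in Q175_TyrobpKO (median 34.9). Q175 and WT again did not overlap, and 11 of the 12 carriers of the Q175 allele lay below every library without it.

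Of the indirect-pathway receptors, Drd2 (ENSMUSG00000032259, chr9:49340627-49408177, plus strand) ranged from 186 to 304 CPM in WT (median 255), from 149 to 278 in TyrobpKO (median 211), from 139 to 190.2 in Q175 (median 174.7) and from 115 to 191 in Q175_TyrobpKO (median 161). It was the 1 receptor of the 6 abundant ones whose Q175 and WT ranges overlapped, with 5 of 6 Q175 libraries below all of WT. How often the ranges of all genes overlap in this pair is not given here. Adora2a (ENSMUSG00000020178, chr10:75316877-75334784, plus strand) ranged from 230 to 355 CPM in WT (median 350), from 205 to 343 in TyrobpKO (median 243), from 144 to 227 in Q175 (median 176) and from 114 to 206 in Q175_TyrobpKO (median 172.7). WT replicate 5 was far below the others of its genotype, though still above the highest Q175 library. Gpr6 (ENSMUSG00000046922, chr10:41069977-41072285, minus strand) ranged from 57.8 to 90.8 CPM in WT (median 79.8), from 51.3 to 76.2 in TyrobpKO (median 63.3), from 38.9 to 55.0 in Q175 (median 44.5) and from 38.6 to 57.8 in Q175_TyrobpKO (median 48.0).

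Cnr1 (ENSMUSG00000044288, chr4:33924593-33948831, plus strand) ranged from 367 to 555 CPM in WT (median 458), from 340 to 531 in TyrobpKO (median 368), from 150 to 269 in Q175 (median 243) and from 177 to 245 in Q175_TyrobpKO (median 223). All 12 carriers of the Q175 allele lay below all 12 animals without it, the only receptor of the 8 for which this held. How many of all genes separate in this way is not given here. Drd3 (ENSMUSG00000022705, chr16:43754026-43822932, plus strand), a dopamine receptor concentrated in the ventral striatum and the islands of Calleja, was rare, with 93 reads over the 6 TyrobpKO libraries and 217 over WT. It ranged from 0.756 to 2.45 CPM in WT (median 1.14), from 0.409 to 0.642 in TyrobpKO (median 0.565), from 0.504 to 2.26 in Q175 (median 0.788) and from 0.615 to 1.71 in Q175_TyrobpKO (median 0.698). Drd4 (ENSMUSG00000025496, chr7:141292006-141296464, plus strand), a receptor mainly of cortex and retina, had 33 to 41 reads per genotype, with genotype means of 0.196 to 0.242 CPM. It did not pass the filter on low counts, so no change of it was tested in the main fit.

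**Figure D1:**
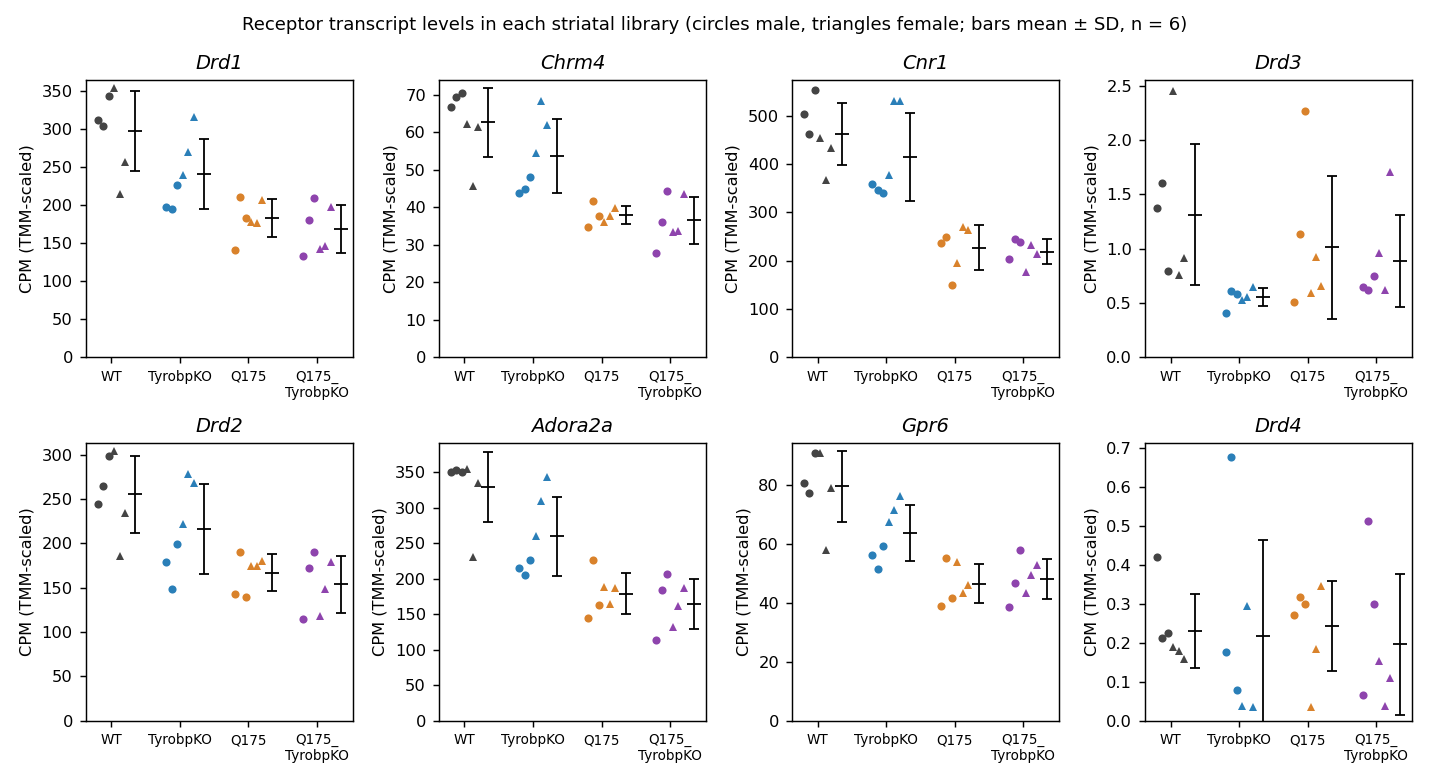
Each panel plots the TMM-scaled CPM of 1 receptor (linear axis from 0) in the 6 libraries of each genotype, with circles for males, triangles for females and a bar for mean ± SD. The Q175 and Q175_TyrobpKO points of Cnr1 all lie at or below 269 CPM and the other points at or above 340 CPM; the lower SD bar of Drd4 in TyrobpKO is cut off at 0.

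The comparison of Q175 with WT asked what the allele changed with Tyrobp present. With edgeR's quasi-likelihood test and Benjamini-Hochberg adjustment over all genes tested, 6 of the 7 receptors tested fell and none rose, against 5.47% of all genes lower and 4.15% higher. Cnr1 fell by 50.9% in mean CPM (log2 fold change -1.03 ± 0.15 SE, adjusted p = 7.20e-05). Among indirect-pathway receptors, Adora2a fell by 45.6% (-0.88 ± 0.16, adjusted p = 0.000884), Gpr6 by 41.6% (-0.78 ± 0.12, adjusted p = 0.000105) and Drd2 by 34.6% (-0.62 ± 0.16, adjusted p = 0.0147). Of the direct-pathway receptors, Chrm4 fell by 39.5% (-0.73 ± 0.12, adjusted p = 0.000322) and Drd1 by 38.5% (-0.70 ± 0.15, adjusted p = 0.00298). Drd3 had a log2 fold change of -0.36 ± 0.35 (adjusted p = 0.601), which was -0.79 without Q175 replicate 3 and -0.080 without WT replicate 4. The 7 had a median of -0.73, and all 19667 genes one of 0.0073. With any 1 of the 24 libraries left out the count of calls was again 6, and the adjusted p of Drd2, the closest to the threshold, reached 0.0466. In females alone 2 of the 7 passed, Cnr1 and Gpr6. The adjusted p was 0.0518 for Chrm4, 0.0557 for Adora2a, 0.239 for Drd1 and 0.320 for Drd2, with all 4 log2 fold changes still below 0. That fit holds 3 animals per genotype, and the share of all genes called in it is not given here. All 6 Q175 animals carried animal numbers with a prefix that 1 WT animal shared and 5 did not, so a difference marked by the prefix and the genotype cannot be told apart in this comparison.

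Q175_TyrobpKO was compared with TyrobpKO to see what the allele changed without Tyrobp, between animals that shared 1 number prefix. Here 5 of 7 receptors fell and none rose, against 3.08% of all genes lower and 2.78% higher. Cnr1 fell by 47.3% (log2 fold change -0.92 ± 0.15, adjusted p = 0.000467), Adora2a by 36.8% (-0.66 ± 0.16, adjusted p = 0.0146), Chrm4 by 31.9% (-0.55 ± 0.12, adjusted p = 0.00696), Drd1 by 30.0% (-0.51 ± 0.15, adjusted p = 0.0399) and Gpr6 by 24.5% (-0.40 ± 0.12, adjusted p = 0.0434). Drd2 had a log2 fold change of -0.48 ± 0.16 and missed the threshold with adjusted p = 0.0840, and Drd3 one of 0.67 ± 0.37 (adjusted p = 0.3502). The libraries of these 2 genotypes overlapped for every receptor tested but Cnr1. The calls for Drd1 and Gpr6 were close to the threshold: leaving out 1 library ended that of Drd1 in 12 of 24 cases and that of Gpr6 in 16, and the number of receptors called moved between 3 and 6. In males alone no receptor passed, and fewer passed in females alone and with no filter on low counts, as given in the last section.

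The test of the difference between these Q175 effects called no receptor and no gene (0.00%) with edgeR, at an unadjusted p under 0.05 for 707 genes. Its values over all 24 libraries were positive for all 7 receptors. For the 6 abundant ones this is a smaller decrease without Tyrobp, and for Drd3 a value of -0.36 with Tyrobp against 0.67 without it. They were 0.11 ± 0.21 for Cnr1, 0.14 ± 0.22 for Drd2, 0.18 ± 0.17 for Chrm4, 0.19 ± 0.21 for Drd1, 0.23 ± 0.22 for Adora2a, 0.38 ± 0.17 for Gpr6 and 1.04 ± 0.51 for Drd3. Gpr6 alone of the 7 had an unadjusted p under 0.05 (0.0322, adjusted p = 0.999). In females alone the sign was negative for Drd1 (-0.21), Drd2 (-0.34), Adora2a (-0.16), Chrm4 (-0.17) and Cnr1 (-0.43), none of which passed either. The same 7 values also hold the Tyrobp differences described next and the prefix difference between Q175 and WT. Over all 24 libraries this test gave values below 0 for 50.6% of all genes. It gave them for none of 15 genes shared by both kinds of projection neuron, described below (median 0.23).

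**Figure D2:**
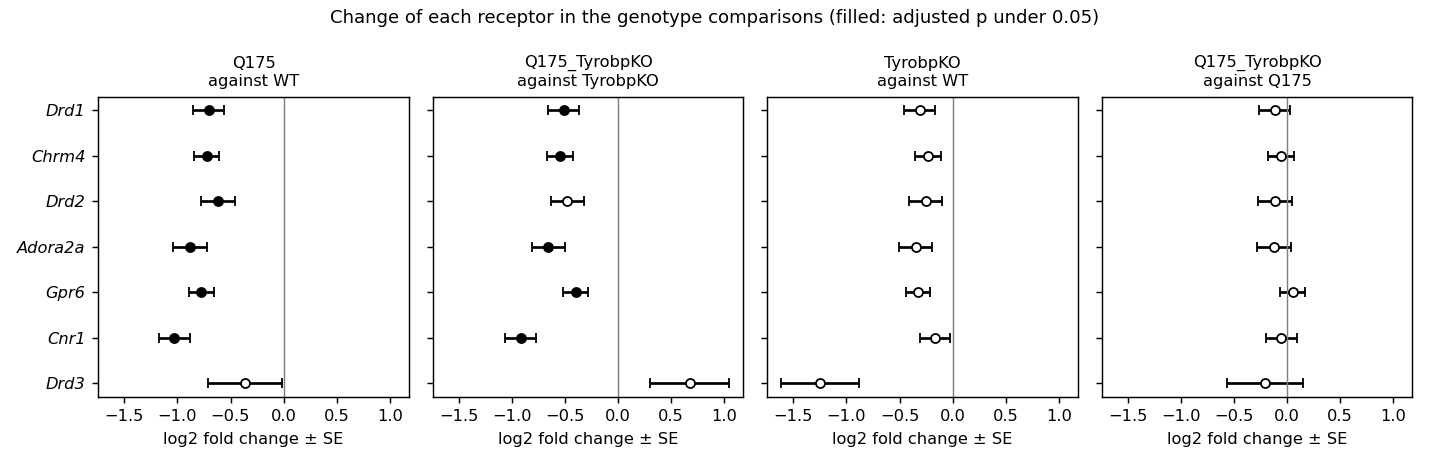
The 4 panels plot the log2 fold change ± SE (horizontal axis) of the 7 receptors tested in each genotype comparison, and filled points had an adjusted p under 0.05. The 6 receptors other than Drd3 lie between -1.03 and -0.62 for Q175 against WT, and no point is filled in the 2 panels that compare Tyrobp genotypes.

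Deletion of Tyrobp was examined in the same fit. All animals without Tyrobp carried a number prefix that no animal with Tyrobp shared. A difference marked by this prefix and the deletion cannot be told apart, here or in carriers of the Q175 allele. TyrobpKO against WT called none of the 7 receptors, against 0.117% of all genes called in either direction, and DESeq2 and limma-voom called none either. An unadjusted p under 0.05 was found for 4 of the 7 and for 1269 of 19667 genes. All 7 log2 fold changes were below 0, from -0.17 ± 0.15 (Cnr1) to -0.35 ± 0.16 (Adora2a) for the 6 abundant receptors, and -1.25 ± 0.37 for Drd3. Of all genes 49.7% were below 0. The 15 genes shared by both kinds of projection neuron, described below, were all below 0 too (median -0.26). This sign was thus not particular to the receptors. The smallest unadjusted p belonged to Drd3 (0.00208) and Gpr6 (0.0103, log2 fold change -0.33 ± 0.12), with adjusted p = 0.672 and 0.749. The 6 TyrobpKO libraries lay below all 6 WT libraries for Drd3. In males alone the 6 abundant receptors had log2 fold changes of -0.54 (Cnr1) to -0.71 (Adora2a) and adjusted p from 0.0563 (Chrm4) to 0.183 (Drd2). In females alone the same 6 had log2 fold changes of -0.09 (Gpr6) to 0.20 (Cnr1), and the difference between the sexes was not tested. Summed cortical neuron markers, described below, were 739 to 966 CPM in the 3 TyrobpKO males and 230 to 539 CPM in the 3 WT males, so that cortical content moved with this difference; its part in the result was not tested within males.

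In carriers of the Q175 allele the deletion of Tyrobp called none of the 7 with edgeR, DESeq2 or limma-voom, against 0.158% of all genes, and none had an unadjusted p under 0.05. The log2 fold changes of Q175_TyrobpKO against Q175 lay between -0.21 (Drd3) and 0.05 (Gpr6), and their SE was 0.12 to 0.16 for the 6 abundant receptors. The difference between females and males passed the test for no receptor (0.0814% of all genes called), and none had an unadjusted p under 0.05. The Q175 effect averaged over both Tyrobp backgrounds was -0.93 in males and -0.996 in females for Cnr1, -0.67 and -0.85 for Adora2a, -0.54 and -0.66 for Drd1, -0.46 and -0.62 for Drd2, -0.55 and -0.62 for Gpr6, and -0.60 and -0.66 for Chrm4. Fitted in each sex alone, Q175 against WT was -1.26 in males and -0.78 in females for Cnr1, and -0.84 and -0.55 for Drd1. Without Tyrobp the order was the other way, with -0.61 in males and -1.21 in females for Cnr1, -0.24 and -0.76 for Drd1, and -0.14 and -0.79 for Drd2. This difference between the sexes within a Tyrobp background was not tested. For the Q175 effect averaged over both Tyrobp backgrounds, no receptor and no gene (0.00%) passed the test of a difference between the sexes. An unadjusted p under 0.05 was found for 593 genes and none of the receptors.

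Direct- and indirect-pathway receptors were then set against each other within each library, so that the scaling of the library drops out. The mean log2 CPM of Drd2, Adora2a and Gpr6 minus that of Drd1 and Chrm4 was 0.47 ± 0.06 in WT (0.40 to 0.55), 0.43 ± 0.06 in TyrobpKO (0.31 to 0.48), 0.42 ± 0.12 in Q175 (0.24 to 0.59) and 0.44 ± 0.09 in Q175_TyrobpKO (0.35 to 0.59). These differences of levels overlapped between all genotypes, and their means moved by -0.048 from WT to Q175 and by 0.016 from TyrobpKO to Q175_TyrobpKO. No test was made, since the receptors were chosen with results of these data known. For the 2 dopamine receptors, Drd2 minus Drd1 was at -0.22 ± 0.07 in WT and -0.13 ± 0.16 in Q175. Adora2a minus Drd1 was 0.15 ± 0.14 in WT against -0.03 ± 0.12 in Q175, and 0.10 ± 0.06 in TyrobpKO against -0.05 ± 0.12 in Q175_TyrobpKO. Its means thus differed by -0.19 and -0.15 between carriers and the others, and the libraries overlapped in both pairs. Gpr6 minus Chrm4 was 0.26 ± 0.11 in TyrobpKO and 0.41 ± 0.09 in Q175_TyrobpKO, where 5 of 6 libraries lay above every TyrobpKO library, but it was 0.34 ± 0.13 in WT and 0.28 ± 0.17 in Q175.

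**Figure D3:**
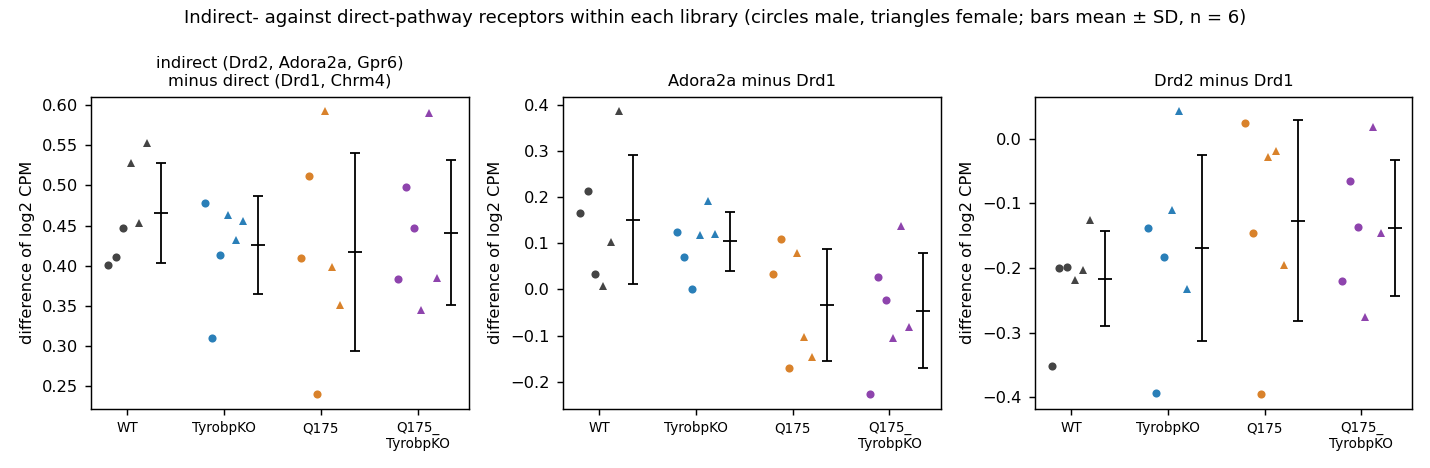
Each panel plots a difference of log2 CPM between receptors (vertical axis) within each library, by genotype, with circles for males, triangles for females and bars for mean ± SD. The index of indirect minus direct receptors overlaps between all 4 genotypes, with means from 0.42 to 0.47.

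The receptors were also set against 15 genes that both kinds of projection neuron express, a list chosen with earlier results known. Of these, 13 of 15 fell in Q175 against WT and none rose (median log2 fold change -0.61), among them Scn4b, a sodium channel subunit (-1.33 ± 0.14, adjusted p = 1.22e-06), and Ppp1r16b, a phosphatase subunit (-0.61 ± 0.07, adjusted p = 1.45e-06). In Q175_TyrobpKO against TyrobpKO 4 of 15 fell: Pde10a, Arpp21, Scn4b and Ppp1r16b. Among all genes 5.47% fell in the first of these comparisons and 3.08% in the second. Relative to the mean log2 CPM of the 15 in the same library, Drd1 differed by -0.06 between Q175 and WT, Drd2 by 0.03, Chrm4 by -0.08, Gpr6 by -0.14, Adora2a by -0.25 and Cnr1 by -0.41. Between Q175_TyrobpKO and TyrobpKO these were -0.10, -0.07, -0.14, 0.01, -0.25 and -0.49 in the same order. Only Drd1, Adora2a and Cnr1 among these 6 had libraries that did not overlap, and only in the latter comparison.

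Other genes of the 2 pathways, outside the receptors, gave a different count. Their calls stand beside 5.47% of all genes lower in Q175 against WT and 3.08% lower in Q175_TyrobpKO against TyrobpKO. Of 7 direct-pathway genes 1 fell in Q175 against WT, Sfxn1, a mitochondrial serine transporter (68.4 ± 5.31 CPM in WT, 54.5 ± 6.02 in Q175, adjusted p = 0.00101), and Pdyn, the prodynorphin gene, was at -0.33 ± 0.13 (adjusted p = 0.126). Of 5 indirect-pathway genes 2 fell: Penk, the proenkephalin gene (1086 ± 155 to 503 ± 85.04 CPM, log2 fold change -1.12 ± 0.16, adjusted p = 5.51e-05), and Upb1, an enzyme of pyrimidine breakdown (-0.92 ± 0.23, adjusted p = 0.0102). The median log2 fold change was -0.05 for the direct and -0.09 for the indirect list, near the 0.0073 of all genes. The same 3 genes, Sfxn1, Penk and Upb1, fell in Q175_TyrobpKO against TyrobpKO, where Upb1 was at -1.41 ± 0.24 (adjusted p = 0.000431).

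Downstream of the receptors, 29 genes of G proteins and the cyclic AMP chain were tested, and in Q175 against WT 9 fell and 3 rose (median -0.17). Among all genes 5.47% fell and 4.15% rose, and 3 of 29 higher is not far from that share. Those lower were Gnao1, Gnb2, Gnb5, Adcy5, Adcy9, Rgs4, Rgs7, Rgs7bp and Rgs14, and those higher were Gnai2, Gng3 and Prkar2a. Rgs14, which speeds the switching-off of inhibitory G proteins, went from 66.0 ± 10.3 to 33.4 ± 1.48 CPM (log2 fold change -0.98 ± 0.09, adjusted p = 2.08e-08), and Rgs4, of the same family, from 788 ± 92.0 to 466 ± 59.8 (-0.76 ± 0.10, adjusted p = 2.31e-05). Without Tyrobp 5 of 29 fell (Gnao1, Adcy5, Rgs4, Rgs7bp and Rgs14) and 1 rose (Prkar2a), with Rgs14 at -0.66 ± 0.09. There 3.08% of all genes fell and 2.78% rose. Of 13 genes of receptor desensitisation and partner proteins, Grk4, a receptor kinase, rose (3.22 ± 0.508 to 5.60 ± 0.583 CPM, log2 fold change 0.80 ± 0.15, adjusted p = 0.000626) as did Gprasp1. Arrb1, Gprin3 and Ppp1r9b fell, the last of which encodes spinophilin, a scaffold that binds Drd2 (-0.53 ± 0.07, adjusted p = 1.54e-05). Grk4, Gprasp1 and Ppp1r9b passed in the same directions without Tyrobp.

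Genes that make, move and break down the ligands were examined next. Their counts stand beside 5.47% of all genes called lower and 4.15% higher in Q175 against WT. None of 6 dopamine genes tested and none of 4 acetylcholine genes passed in Q175 against WT; the smallest p among them belonged to Maoa, a monoamine oxidase (0.16 ± 0.06, adjusted p = 0.0844), and Slc18a3, the vesicular acetylcholine transporter (-0.44 ± 0.18, adjusted p = 0.123). Maob (0.24 ± 0.10, adjusted p = 0.131) and the choline transporter gene Slc5a7 (-0.14 ± 0.19, adjusted p = 0.726) did not pass either. Of 8 adenosine genes 2 rose: Enpp1, an ectoenzyme that splits extracellular nucleotides (0.43 ± 0.12, adjusted p = 0.0159), and Ada, adenosine deaminase (0.779 ± 0.148 to 1.33 ± 0.448 CPM, log2 fold change 0.77 ± 0.23, adjusted p = 0.0318). Of 9 endocannabinoid genes 2 fell: Plcb1, a phospholipase C (-0.44 ± 0.08, adjusted p = 0.000706), and Dagla, which makes 2-arachidonoylglycerol, a ligand of the Cnr1 receptor (125 ± 8.55 to 101 ± 11.05 CPM, -0.30 ± 0.07, adjusted p = 0.00728). Of 12 related receptors of the same families 1 fell, the muscarinic receptor Chrm1 (132 ± 10.7 to 116 ± 9.24 CPM, -0.18 ± 0.06, adjusted p = 0.0433), and Gpr55 was at -0.63 ± 0.23 (adjusted p = 0.0823). A count of 1 in 12 is close to the share of all genes. In Q175_TyrobpKO against TyrobpKO the calls in these 5 lists were Entpd1, an ectonucleotidase, and Plcb1 (-0.38 ± 0.08, adjusted p = 0.00488), both lower. That comparison called 3.08% of all genes lower. No gene of any list passed in TyrobpKO against WT, in Q175_TyrobpKO against Q175 or in the test of the difference between the Q175 effects.

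The genes whose levels ran most like those of the dopamine receptors were named by Pearson's r of log2 CPM over the 24 libraries, among 15490 genes of at least 1 CPM on average. For Drd1 they were Pde1b (0.984), Bcr (0.984), Adcy5 (0.978), Tbc1d8 (0.974) and Rgs9 (0.972), and for Drd2 they included Rxrg (0.977), Kcnab1 (0.967), Rasd2 (0.967) and Ptpn5 (0.961). With genotype and sex means removed, Bcr (0.970) and Pde1b (0.962) were again among the 5 most like Drd1, and Rxrg (0.958), Rasd2 (0.942) and Ptpn5 (0.929) among the 5 most like Drd2. Measured in the same way after removal of these means, Drd1 and Drd2 had r = 0.907, Adora2a and Gpr6 0.926, and Drd1 and Chrm4 0.875, while Cnr1 ran less closely with the other 5 abundant receptors, at 0.545 (Gpr6) to 0.723 (Drd2). The libraries share their dissection and their depth in each of these values, and no test was made.

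Other tissue in the dissections was measured beside these results. Summed over 8 markers of cortical excitatory neurons, WT libraries held 75.5 to 720 CPM, TyrobpKO 444 to 966 CPM, Q175 66.1 to 802 and Q175_TyrobpKO 53.1 to 907. None of the 8 passed in any genotype comparison, though their median log2 fold change in TyrobpKO against WT was 0.82. WT replicate 5, lowest of WT for all 6 abundant receptors, had the highest cortical value of WT, 720 CPM. In a fit with the mean log2 level of these markers as a term, chosen after the data were seen, 4 of the 6 abundant receptors passed as lower per doubling of the markers: Drd1 by -0.15 ± 0.03 (adjusted p = 0.00208), Adora2a by -0.13 ± 0.04 (0.0417), Chrm4 by -0.10 ± 0.03 (0.0312) and Gpr6 by -0.09 ± 0.03 (0.0448), with Drd2 at -0.12 ± 0.04 (adjusted p = 0.0773). Cnr1 was at -0.01 ± 0.05 (adjusted p = 0.917), and Drd3 had the steepest slope, -0.38 ± 0.08 (adjusted p = 0.000578). Of all genes 5.38% were lower with the markers in this fit.

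With that term, 6 receptors fell in Q175 against WT (7.21% of all genes lower), from -0.66 (Drd2) to -1.03 (Cnr1). In Q175_TyrobpKO against TyrobpKO 6 fell (4.34% of all genes lower), now with Drd2 at -0.59 ± 0.14 (adjusted p = 0.0135), Drd1 at -0.64 (adjusted p = 0.000345) and Gpr6 at -0.48 (adjusted p = 0.00356). TyrobpKO against WT again called none (0.112% of all genes called), and Drd1 there moved from -0.31 to -0.17 and Drd3 from -1.25 to -0.84. Of 4 markers of the islands of Calleja and olfactory tubercle, a list that holds Drd3 itself, Hmx3 was at 0 in all 24 libraries. Choroid plexus markers were at 25.2 to 131 CPM in the 12 libraries without the Q175 allele and reached 4108 CPM in Q175 replicate 3, and Ttr and Aqp1 of these 6 rose in Q175 against WT; the calls of the receptors were as many without that library.

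**Figure D4:**
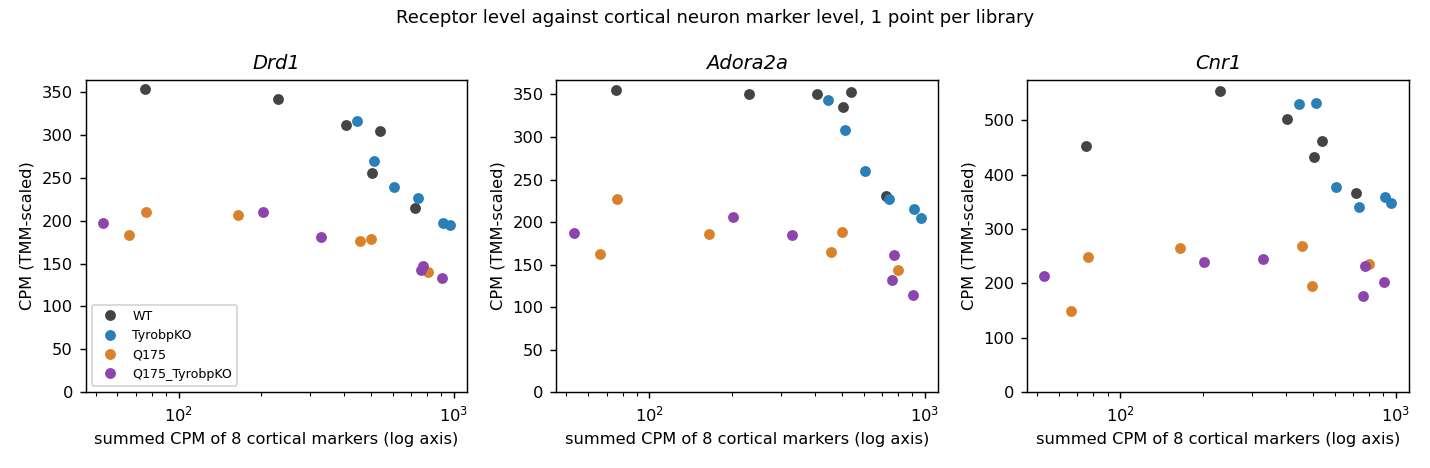
Each panel plots the CPM of a receptor against the summed CPM of 8 cortical excitatory neuron markers (log axis), 1 point per library, coloured by genotype. At a like marker level the Drd1 and Adora2a points of carriers lie below those of the other animals, and Cnr1 is at or below 269 CPM in carriers at every marker level.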

How the data were processed

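The authors deposited raw read counts per gene, which are whole numbers and not normalized. Per the submitters' processing notes, STAR, featureCounts and DESeq2 were used, with versions not given in the sources used here. These notes name the build GRCh38, whereas the deposited identifiers are mouse genes and their coordinates are those of GRCm38; 54409 of 54532 identifiers (99.8%) matched the mouse gene table. Use of strand is not given in the sources used here.

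Counts were tested with edgeR 4.0.16 in R 4.3.3 (TMM, filterByExpr, robust quasi-likelihood fit) over all 24 libraries, with genotype means and sex as terms. The biological coefficient of variation was 16.2%. Calls have a Benjamini-Hochberg adjusted p under 0.05 over 19667 genes. CPM is TMM-scaled. SE is the log2 fold change divided by the root of F. Likeness used log2 CPM with a prior count of 2. The fit was tested on simulated counts. DESeq2 1.42.0, limma 3.58.1 (voom) and other filters, designs and sample sets were alternatives.

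The receptors and gene lists were chosen with earlier results of these data known. Genes named are the receptors, the 2 genes of smallest p in Q175 against WT in each list and any called in other comparisons, and the 5 most like Drd1 and Drd2, of which 1 is not reported here; other called genes of short lists are named after their values were seen. Promoter windows came from RefSeq, and protein sequences were not used here.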

Additional observations from a re-analysis of the deposited data

Results flagged for a closer look

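Groups of 6 libraries were searched for a highest or lowest library whose gap to the next, as a share of the group's range, was above Dixon's critical value. This was found in 5 of 36 groups, where chance alone would give about 1 in 20, or 1.8, if the groups were independent. They share libraries and the receptors run together, so no excess can be read from this count. WT replicate 5 stood below the other WT libraries for Adora2a (230 CPM) and Chrm4 (45.5 CPM). Q175 replicate 3 stood above the other Q175 libraries for Drd3 (2.26 CPM), and Q175_TyrobpKO replicate 6 above its group for Drd3 (1.71 CPM). Drd4 was set apart in WT replicate 1 (0.419 CPM), a value that rests on few reads.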

How the results depend on the processing

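In Q175 against WT the 6 calls became 2 in females alone and were 5 in males alone; the 5 calls in Q175_TyrobpKO against TyrobpKO became 0 in males alone, 3 in females alone and 3 with no filter on low counts, and 3 to 6 with 1 library left out. Of the 24 omissions 12 gave 3 calls: WT replicates 1, 2, 3 and 6, TyrobpKO replicates 3 to 6 and Q175_TyrobpKO replicates 1, 2, 4 and 5. These fits hold fewer animals or test other genes, and the share of all genes called in each is not given here. A loss of calls particular to the receptors therefore cannot be read from these counts. Drd2 passed in that comparison with DESeq2 (-0.48, adjusted p = 0.0149) and with the cortical term, an alternative chosen after seeing the data. The shift of the indirect minus direct index from WT to Q175 (-0.048) was 0.090 for Drd2 against Drd1 alone. RLE size factors in place of TMM shifted the scale of the genotype comparisons by at most 0.0023 on the log2 scale. Signs reversed in values that had not passed. In females alone, TyrobpKO against WT gave Drd2 0.081, Chrm4 0.12 and Cnr1 0.20, the difference between Q175 effects gave Drd1 -0.21, Drd2 -0.34, Adora2a -0.16, Chrm4 -0.17 and Cnr1 -0.43, and Q175_TyrobpKO against Q175 gave Drd3 0.59. In males alone the latter gave Drd2 0.017 and Cnr1 0.12, and Q175 against WT gave Drd3 0.056. Drd3 in females against males was -0.022 with limma-voom and -0.032 with the cortical term, which gave 0.068 in Q175_TyrobpKO against Q175. With 1 library left out, Q175_TyrobpKO against Q175 ranged from -0.13 to 0.0100 for Chrm4, -0.022 to 0.12 for Gpr6, -0.15 to 0.0081 for Cnr1 and -0.50 to 0.21 for Drd3; the Q175 effect by sex from -0.14 to 0.027 for Chrm4, -0.16 to 0.017 for Gpr6, -0.16 to 0.0068 for Cnr1 and -0.43 to 0.16 for Drd3; and females against males from -0.0038 to 0.085 for Drd1 and -0.15 to 0.21 for Drd3. The cause of these changes was not tested. No paired analysis was possible because the labels give no replicate numbers shared between groups. Drd3 and Drd4 are limited by their few reads.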
